A study of Homo sapiens with 2 samples.

Results

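The 37 genes described here encode the ephrins and Eph receptors, the netrins with their receptors DCC, neogenin and the UNC5 proteins, and the slits with their roundabout receptors, which are the axon guidance families other than the semaphorins. They were taken by symbol from the FPKM tables of G401 cells, a human cell line derived from a renal rhabdoid tumor, and all 37 were found, on 37 of the 25001 rows and among 23456 symbols. The data held 2 libraries, both from G401 cells that carried a CRISPR guide. One library, called control here, was labelled with a control guide. The other, called targeted, was labelled with a guide against the homeobox gene HOXB13, and no further treatment separated them in the labels. The sources used here do not say whether the guided cells were a pool or a clone. The question was how the RNA of these genes differed when HOXB13 was targeted. With 1 library per guide, no difference given below could be checked against replicates or tested.

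Ephrins are ligands held at the cell surface, the A class by a lipid anchor and the B class by a transmembrane segment, and Eph receptors are the receptor tyrosine kinases that bind them on neighbouring cells. The ephrin itself can also signal into the cell that carries it. Netrins are secreted, laminin-related proteins that attract growing axons through DCC and repel them through UNC5 receptors, and slits are large secreted proteins that repel through roundabout receptors. All these families also act outside the nervous system, and in the developing kidney slit and roundabout signals help to set where the ureteric bud forms.

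Levels were compared as FPKM, the fragments of a gene per transcript length and per library size, which allows genes of different length to be set side by side within a library. The ratio of targeted over control was taken as log2 of (FPKM + 1) in each library, a scale that understates the difference of low genes. A gene entered this comparison with at least 1 FPKM in either library, which 11970 genes did, and a ratio of 2-fold or more in either direction was called, a rule that ranks size alone and says nothing of significance. Steps between low values put the depth near 24.05 M reads for control and near 23.6 M for targeted, with M for mega, and the read numbers given below with the word about rest on these depths. HOXB13 itself was at 14.6 FPKM in control and at 4.50 FPKM in the targeted library. SMARCB1, whose loss marks rhabdoid cells, had 0.113 and 0.0577 FPKM. Of 10 endothelial markers none reached 1 FPKM, with CDH5, KDR and TEK listed at 0 in both libraries and a sum of 0.258 FPKM in the control and 0.358 in the targeted library. Of 10 neuron markers only the vesicle gene SYP did, at 1.79 and 2.84 FPKM, with DCX, SNAP25 and ELAVL4 listed at 0 in both and a list sum of 2.25 and 3.17 FPKM. The 10 leukocyte markers summed to 107 and 112 FPKM, nearly all of it CD68, a lysosomal gene, at 102 and 111. The receptor gene CSF1R had 3.25 and 0.348 FPKM and was the only marker called. PTPRC, the common leukocyte antigen, was at 0.0165 FPKM and listed at 0, and CD3E and MS4A1 were listed at 0 in both libraries.

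Of the 37 genes, 14 reached 1 FPKM in either library, and 3 of these were called higher and 4 lower in the targeted library. Over all 11970 genes compared, 4.25% were called higher and 4.51% lower. The higher genes were the ephrin EFNB2, the Eph receptor EPHA7 and the slit SLIT3. The lower genes were the netrin receptor UNC5B, the netrin NTN4, the ephrin EFNA5 and the roundabout receptor ROBO3. Only 8 of the 14 were above 1 FPKM in both libraries. EFNB2, EPHA7 and SLIT3 entered through the targeted library alone and EFNA2, EFNA5 and EPHB2 through the control library alone, so these 6 had to differ to some degree, and the counts are a description and not support. The median log2 ratio of the 14 was −0.16, beside −0.05 for all genes compared, with 6 ratios above 0 and 8 below.

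**Figure D1:**
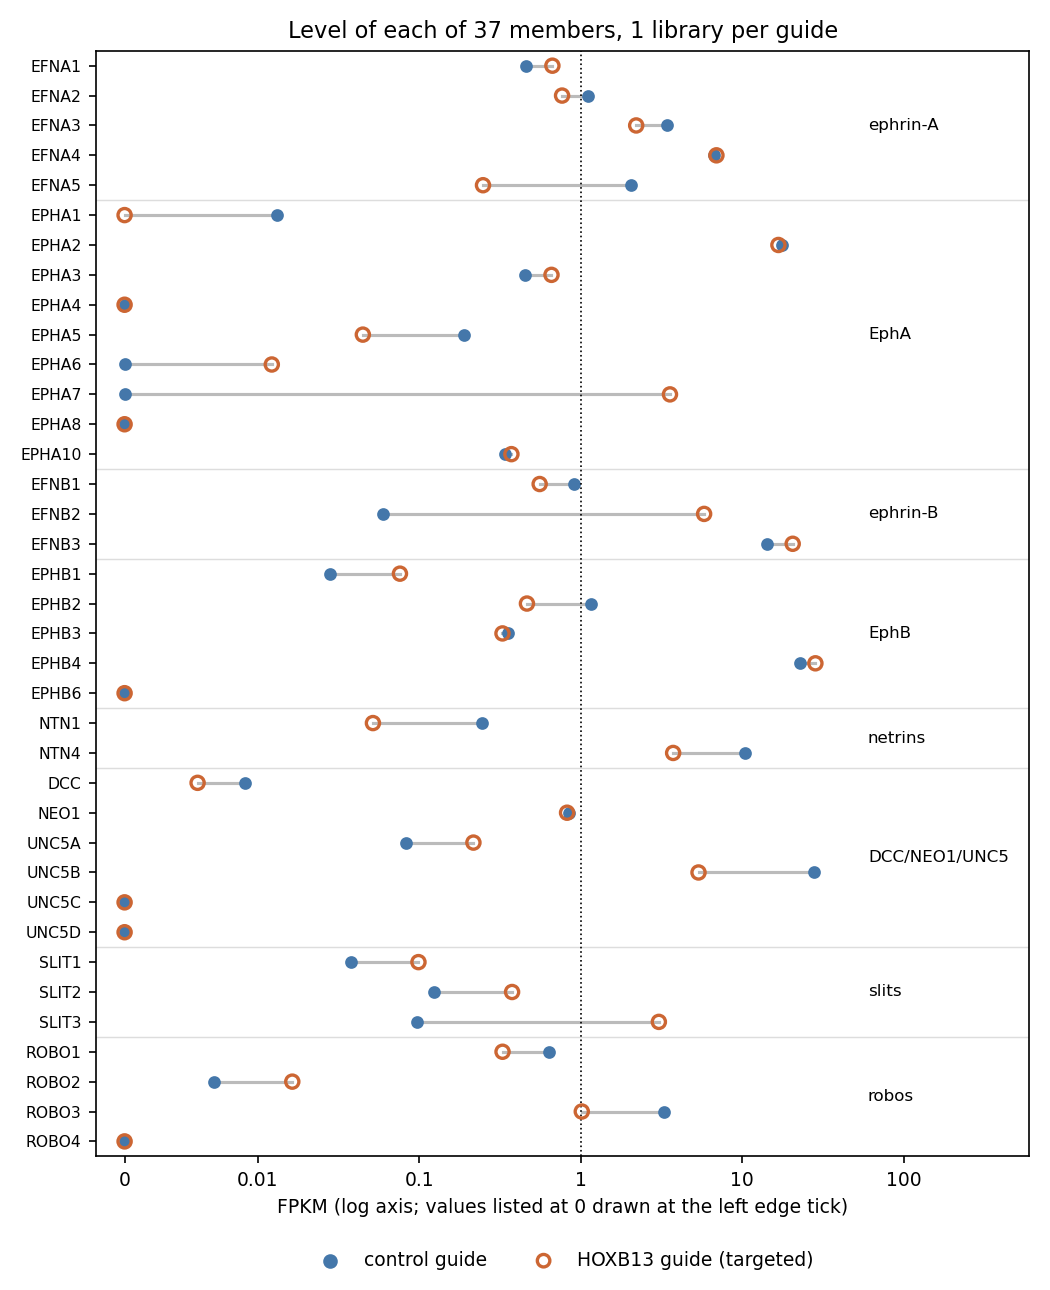
FPKM of each of the 37 genes on a log axis, with filled circles for the control library, open circles for the targeted library and the dotted line at 1 FPKM; values listed at 0 are drawn at the leftmost tick. The longest lines belong to EPHA7, EFNB2 and SLIT3, which are at or below 0.0963 FPKM in the control library and between 3.05 and 5.81 FPKM in the other. EPHB4, EPHA2, EFNB3, EFNA4 and UNC5B are above 5 FPKM in both, UNC5B at 28.0 in the control and 5.36 in the targeted library.

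Among the B-class ephrins, EFNB2, which encodes ephrin-B2, a ligand known from arteries and from mesenchyme, was near absent in the control library and expressed in the other. Its level was 0.0597 FPKM in the control and 5.81 FPKM in the targeted library, a log2 ratio of 2.68 with the pseudocount. Without the pseudocount the targeted level was 97.3-fold higher, and the values stood for about 6 and 572 reads, which gave an exact 95% interval of 44.4 to 266 for the ratio, counting error only. EFNB2 lies on chromosome 13 from 107142079 to 107187388 in hg19. In bulk RNA such a difference cannot tell more expressing cells from more RNA per cell. EFNB3, a B-class ephrin best known from the nervous system, was the most abundant ephrin in both libraries, at 14.3 FPKM in the control and 20.5 FPKM in the targeted library. It was 1.43-fold higher without the pseudocount and was not called. EFNB1, an X-linked ephrin, had 0.905 and 0.557 FPKM and stayed below the limit for comparison.

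Among the EphB receptors the most abundant was EPHB4, the main receptor of ephrin-B2 in vessels. EPHB4 had 22.8 FPKM in the control and 28.4 FPKM in the targeted library, a log2 ratio of 0.31 that was not called. It made up 93.7% of the summed EphB level in the control and 97.0% in the targeted library. EPHB4 stood 382-fold above EFNB2 in the control library and 4.89-fold above it in the targeted library, so that the receptor was above 1 FPKM in both and its partner ligand in the targeted library alone. EPHB2, a receptor with roles in gut crypts and in axon pathfinding, had 1.16 and 0.465 FPKM and about 97 and 38 reads. Its level was 2.50-fold lower without the pseudocount, but its log2 ratio of −0.56 did not reach the rule, and it was −1.16 and past the rule with a pseudocount of 0.1 FPKM. EPHB3 had 0.352 and 0.328 FPKM, and EPHB1 had 0.0279 and 0.0760, which is about 3 and 8 reads. EPHB6, a family member without kinase activity, was listed at 0 in both libraries.

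In the A class a receptor was present in the targeted library alone and a ligand was mostly in the control library. EPHA7, a receptor that shapes the neural tube and cortex, had 3.57 FPKM in the targeted library, about 537 reads, and was listed at 0 in the control. No fold is given against a value listed at 0, and the log2 ratio of 2.19 that called the gene depends on the pseudocount. EPHA7 lies on chromosome 6 from 93949740 to 94129300 in hg19. EFNA5, which encodes ephrin-A5, a ligand with high affinity for EPHA7 and other EphA receptors, had 2.04 FPKM in the control and 0.248 FPKM in the targeted library, a log2 ratio of −1.28. Without the pseudocount EFNA5 was 8.20-fold lower, with about 251 and 30 reads and an exact 95% interval of 5.60 to 12.4 for that fold, counting error only. It lies on chromosome 5 from 106712590 to 107006596. Neither library held both genes above 1 FPKM, which restates that each entered the comparison through 1 library alone. In the targeted library EPHA7 stood beside other A-class ephrins, EFNA4 at 6.93 FPKM and EFNA3 at 2.21 FPKM. In the control EFNA5 stood beside EPHA2 at 17.6 FPKM.

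The other expressed A-class genes differed less. EPHA2, an Eph receptor common in epithelial tumors, was the most abundant EphA gene, with 17.6 FPKM in the control and 16.8 FPKM in the targeted library, a ratio of 0.952 (exact 95% interval 0.887 to 1.02, counting error only). EFNA4, EFNA3 and EFNA1 lie next to each other on chromosome 1 between 155036213 and 155107386, and none of them was called. EFNA4 had 6.68 and 6.93 FPKM, and its row overlaps that of LOC100505666, at 4.35 and 1.99 FPKM. EFNA3 had 3.43 FPKM in the control and 2.21 FPKM in the targeted library, 1.55-fold lower without the pseudocount. EFNA1, the usual ligand of EPHA2, was low in both libraries at 0.458 and 0.668 FPKM, so EFNA4 and EFNA3 made up most of the A-class ligand level. EFNA2 had 1.12 and 0.767 FPKM, which is about 20 and 14 reads and an interval that includes no difference.

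The most abundant netrin, NTN4, and the most abundant netrin receptor, UNC5B, were both lower in the targeted library. NTN4, a netrin of basement membranes that binds laminin and is expressed in kidney and vessels, had 10.4 FPKM in the control and 3.74 FPKM in the targeted library, a log2 ratio of −1.26. Without the pseudocount it was 2.78-fold lower, with about 852 and 301 reads and an exact 95% interval of 2.43 to 3.17, counting error only. NTN4 lies on chromosome 12 from 96051583 to 96184536 in hg19. UNC5B, a netrin receptor that can trigger cell death when unbound and is also known from endothelium, had 28.0 FPKM in the control and 5.36 FPKM in the targeted library, a log2 ratio of −2.19 and 5.22-fold lower without the pseudocount (exact 95% interval 4.85 to 5.63, counting error only). It was the most abundant of the 37 genes in the control library, and in the targeted library EPHB4, EFNB3, EPHA2, EFNA4 and EFNB2 stood above it. UNC5B lies on chromosome 10 from 72972292 to 73062635, and its row overlaps that of UNC5B-AS1, an antisense gene that had 13.0 and 2.77 FPKM. The sources used here do not give the strand mode of the authors' counting, so reads of the pair cannot be told apart.

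The remaining netrin genes were low. NEO1, which encodes neogenin, a netrin receptor related to DCC, had 0.845 and 0.824 FPKM, about 145 and 139 reads. NTN1, the netrin that guides commissural axons, had 0.246 and 0.0517 FPKM, about 34 and 7 reads. DCC, the attractive receptor, was at about 2 reads and 1 read. UNC5A had 0.0825 and 0.217 FPKM, and UNC5C and UNC5D were listed at 0 in both libraries, so the netrin receptor level was that of UNC5B and, well below it, NEO1.

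On FPKM without a pseudocount all 3 slits were higher in the targeted library, and ROBO3 and ROBO1, the more abundant roundabout genes, were lower. SLIT3, a secreted slit with roles in the diaphragm of mice, had 0.0963 FPKM in the control and 3.05 FPKM in the targeted library, a log2 ratio of 1.88. Without the pseudocount it was 31.6-fold higher, with about 22 and 682 reads and an exact 95% interval of 20.7 to 50.8, counting error only. SLIT3 lies on chromosome 5 from 168088738 to 168728133 in hg19. SLIT2, the slit that acts with ROBO2 at the ureteric bud in mice, had 0.123 and 0.376 FPKM, about 18 and 54 reads, and SLIT1 had 0.0377 and 0.0990 FPKM, about 7 and 18 reads. Both stayed below the limit for comparison.

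Of the receptors, ROBO3, a divergent roundabout protein that controls midline crossing, had 3.30 FPKM in the control and 1.02 FPKM in the targeted library, a log2 ratio of −1.09. It was 3.25-fold lower without the pseudocount, with about 347 and 105 reads and an exact 95% interval of 2.60 to 4.07, counting error only. ROBO3 lies on chromosome 11 from 124735305 to 124751370. Its neighbour ROBO4, the endothelial roundabout gene, was listed at 0 in both libraries. ROBO1, the broadly expressed slit receptor, had 0.634 and 0.328 FPKM, about 82 and 42 reads. ROBO2 was at about 1 read and 3 reads. SLIT3 was thus 0.0292 times the level of ROBO3 in the control library and 3.001 times that level in the targeted library. Against ROBO1 it was 0.152 times in the control and 9.29 times in the targeted library.

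Summed by family, the levels of ligands and of their receptors shifted differently in each system. The sums pool all members of a family, whether or not each ligand binds each receptor, and binding was not measured. The summed A-class ephrins had 13.7 FPKM in the control and 10.8 FPKM in the targeted library. The EphA receptors had 18.6 and 21.4 FPKM, a small difference whose direction turned with ratios centred on a list of 11 housekeeping genes. The median log2 ratio of that list was 0.25, and its genes spread widely, from −0.81 (CHMP2A) to 0.81 (REEP5). With only genes at 5 FPKM or more, EFNA4 and EPHA2 alone, the direction of both A-class sums turned. The B-class ephrins had 15.3 and 26.9 FPKM and the EphB receptors 24.3 and 29.3 FPKM. The log2 ratio of the EphB sum was 0.26 unscaled and 0.005 with the housekeeping centring. The ephrin over Eph ratio went from 0.738 to 0.505 in the A class, where the direction turned with only genes at 5 FPKM or more (0.380 to 0.413), and from 0.629 to 0.920 in the B class. None of these 4 sums passed 2-fold. Netrins had 10.6 and 3.79 FPKM and their receptors 28.97 and 6.41 FPKM, both past 2-fold lower, and the ligand over receptor ratio was 0.366 and 0.591. Slits had 0.257 and 3.52 FPKM and roundabout receptors 3.94 and 1.36 FPKM, past 2-fold in opposite directions. The roundabout sum exceeded the slit sum 15.3-fold in the control library. That fold rests mostly on ROBO3, whose binding of slits was not measured. ROBO1 alone had 0.634 FPKM in the control and 0.328 FPKM in the targeted library, beside slit sums of 0.257 and 3.52 FPKM. In the targeted library the slit sum exceeded the roundabout sum 2.59-fold. The slit and roundabout system was the only one of the 4 in which the larger sum changed between the libraries.

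**Figure D2:**
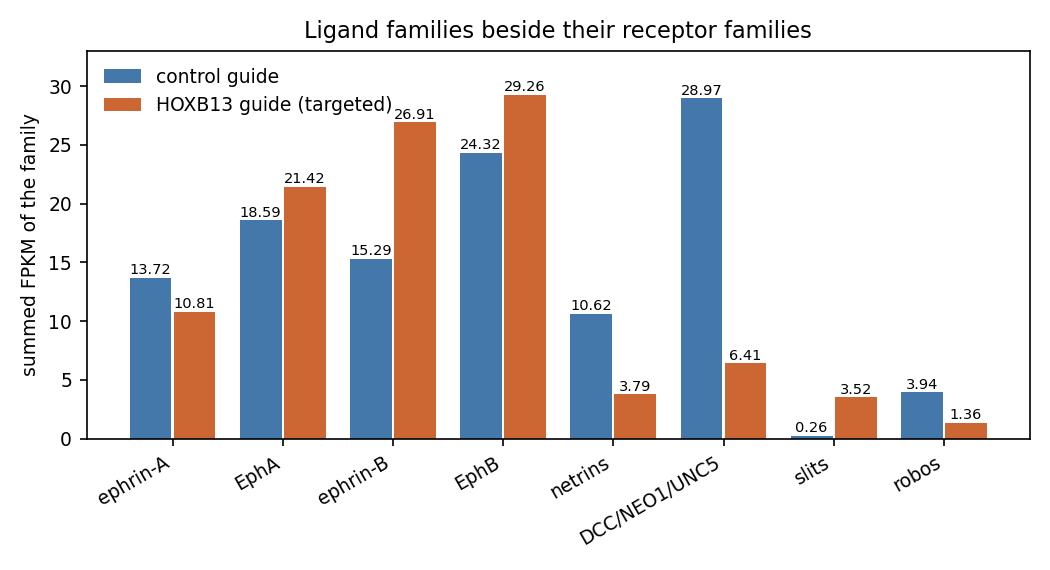
Summed FPKM of each ligand family and of the receptor family to its right, in the control library (blue) and the targeted library (orange), with the sum printed over each bar. The netrins and their receptors are both lower in the targeted library (10.6 against 3.79 and 28.97 against 6.41), slits are higher and roundabout receptors lower, and the small EphA difference turns with ratios centred on the housekeeping genes, as do both A-class differences with only genes at 5 FPKM or more.

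Most families rested on 1 gene. EPHA2 gave 94.7% of the EphA level in the control and 78.2% in the targeted library, where EPHA7 joined it. EFNB3 gave 93.7% and 76.3% of the B-class ephrin level, with EFNB2 next to it in the targeted library. NTN4 gave 97.7% and 98.6% of the netrins, UNC5B 96.8% and 83.7% of the netrin receptors, and ROBO3 83.8% and 74.7% of the roundabout level. In the targeted library SLIT3 gave 86.5% of the slit level. In the control SLIT2 gave 47.8% of a slit sum of only 0.257 FPKM. With about 18 reads of SLIT2 and about 22 of SLIT3 there, their order in the control is not read.

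**Figure D3:**
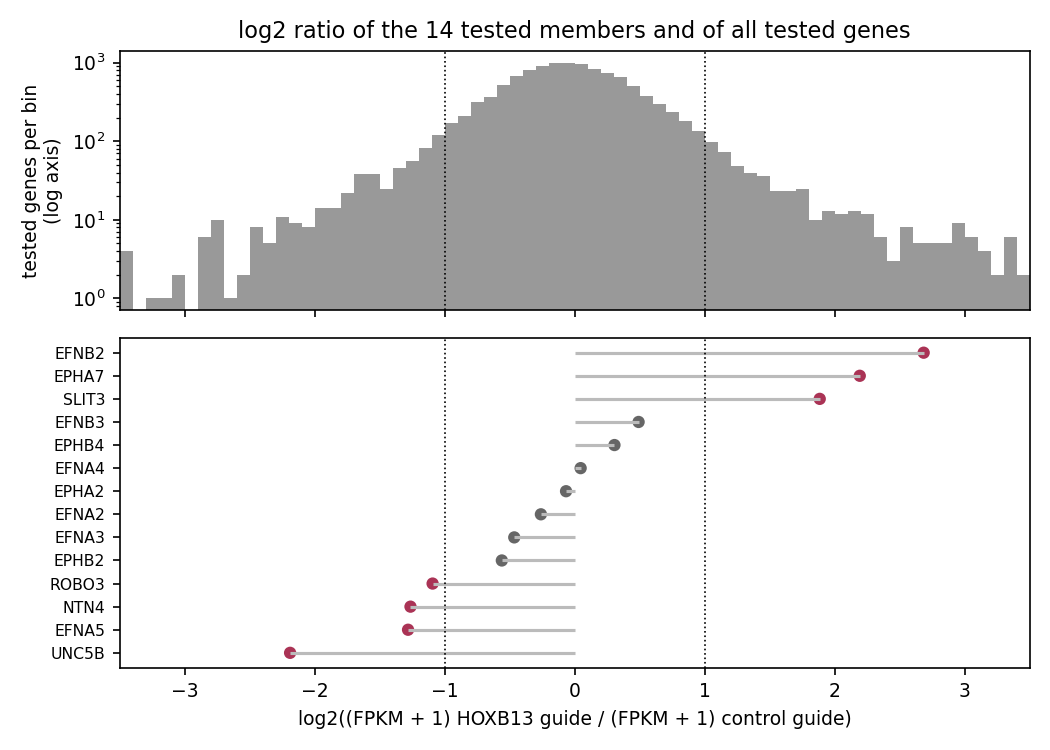
Lower panel, the log2 ratio of (FPKM + 1) in the targeted over the control library for the 14 genes compared, with called genes in red and dotted lines at 2-fold; upper panel, the same ratio for all 11970 genes on a log count axis, genes beyond the axis range not drawn. EFNB2 (2.68), EPHA7 (2.19) and SLIT3 (1.88) lie to the right of the bulk of all genes and UNC5B (−2.19) to its left, and EFNA4 (0.05) and EPHA2 (−0.07) near its centre, EFNA4 below 0 with ratios centred on the housekeeping genes.

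Of the 23 genes under 1 FPKM in both libraries, 6 were listed at 0 in both. These were the Eph receptors EPHA4, EPHA8 and EPHB6, the netrin receptors UNC5C and UNC5D, and ROBO4. EPHA1, whose row overlaps that of the abundant gene ZYX, was at about 1 read in the control and listed at 0 in the targeted library, and EPHA6 was the reverse. The other 15 had values in both libraries, up to the 0.905 FPKM of EFNB1. On FPKM without a pseudocount 5 of the 15 were at least 2-fold higher (EPHB1, UNC5A, SLIT1, SLIT2 and ROBO2) and 2 at least 2-fold lower (EPHA5 and NTN1), where 20.1% and 20.8% of the 3854 genes in that range of all genes were so. The counting interval of the ratio lay above 1 for 4 of the 15, below 1 for 4 and included 1 for 7. The share of all genes in that range with such intervals was not computed, so nothing particular to these genes is read from the counts. EPHA5, a brain Eph receptor, had 0.190 and 0.0448 FPKM, about 37 and 9 reads. EPHA3, a receptor found in mesenchymal cells, had 0.449 and 0.660 FPKM, and EPHA10, which lacks kinase activity, had 0.340 and 0.372.

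Promoter sequences of called genes are printed to show what lies at the starts of genes called in each direction. The windows run from 250 bases before to 50 bases after the RefSeq gene start, in the build GRCh38.p14, and 32 of the 37 genes matched the table. Each is read 5′ to 3′ on the strand of the gene, with every CG dinucleotide in capitals. The first 3 belong to the genes called higher and the last 2 to genes called lower. Of the other genes called lower, ROBO3 had a window that is not printed and UNC5B had no matched window.
EFNB2 (chr13:106535613-106535912, minus strand): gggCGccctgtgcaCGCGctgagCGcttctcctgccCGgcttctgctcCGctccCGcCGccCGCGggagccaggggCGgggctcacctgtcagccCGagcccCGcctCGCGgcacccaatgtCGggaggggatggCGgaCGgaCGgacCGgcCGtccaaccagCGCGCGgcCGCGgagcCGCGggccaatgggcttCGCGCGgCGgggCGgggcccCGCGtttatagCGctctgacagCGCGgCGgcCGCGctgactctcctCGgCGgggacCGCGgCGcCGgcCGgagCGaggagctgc
EPHA7 (chr6:93419510-93419809, minus strand): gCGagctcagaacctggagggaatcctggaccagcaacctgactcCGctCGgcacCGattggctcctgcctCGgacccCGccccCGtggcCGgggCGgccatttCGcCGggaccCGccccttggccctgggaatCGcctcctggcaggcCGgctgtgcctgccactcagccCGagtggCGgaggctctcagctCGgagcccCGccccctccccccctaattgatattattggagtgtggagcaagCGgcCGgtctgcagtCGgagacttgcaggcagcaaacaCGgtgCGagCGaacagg
SLIT3 (chr5:169301090-169301389, minus strand): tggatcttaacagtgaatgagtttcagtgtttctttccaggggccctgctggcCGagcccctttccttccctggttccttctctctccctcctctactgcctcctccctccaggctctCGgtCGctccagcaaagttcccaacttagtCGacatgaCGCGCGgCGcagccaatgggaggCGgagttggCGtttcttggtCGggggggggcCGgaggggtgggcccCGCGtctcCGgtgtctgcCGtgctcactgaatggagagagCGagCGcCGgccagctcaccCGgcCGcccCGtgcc
EFNA5 (chr5:107670888-107671187, minus strand): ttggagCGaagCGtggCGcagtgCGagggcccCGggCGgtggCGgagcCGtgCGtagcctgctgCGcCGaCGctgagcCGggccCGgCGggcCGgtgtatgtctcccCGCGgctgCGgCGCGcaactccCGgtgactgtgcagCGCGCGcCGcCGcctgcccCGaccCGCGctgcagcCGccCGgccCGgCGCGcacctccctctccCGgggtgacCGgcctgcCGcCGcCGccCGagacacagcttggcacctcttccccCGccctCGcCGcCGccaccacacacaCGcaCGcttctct
NTN4 (chr12:95791106-95791405, minus strand): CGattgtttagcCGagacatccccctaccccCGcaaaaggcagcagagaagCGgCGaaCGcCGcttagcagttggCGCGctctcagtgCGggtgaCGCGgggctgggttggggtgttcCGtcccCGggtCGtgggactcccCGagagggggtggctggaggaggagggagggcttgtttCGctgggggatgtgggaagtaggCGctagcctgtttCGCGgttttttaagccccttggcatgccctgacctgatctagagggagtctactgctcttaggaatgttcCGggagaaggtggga

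These windows were rich in CG. The EFNB2 promoter held 49 CG dinucleotides and 78.7% G or C, that of EFNA5 47 and 78.0%, that of EPHA7 24 and 68.3%, that of SLIT3 22 and 64.7%, and that of NTN4 21 and 62.3%. The window of ROBO3, which is not printed, held 21 CG dinucleotides and 67.0% G or C. Placed by its neighbour ROBO4 in both builds, that window lies inside the ROBO3 row and not at its start. It is left out of the next comparison, and a RefSeq gene start need not be the start of the row measured. Among the printed windows, those of the higher and of the lower genes thus overlapped in this feature. Over the 32 matched genes the median was 22 CG dinucleotides and 65.8% G or C, against 14 and 58.3% over 27305 promoters. The letters CCAATAAA, a motif bound by HOXB13, were searched on both strands and were in none of the 32 windows and in 0.992% of all promoters. The shorter AATAAA that it contains, searched likewise, was in 2 of the 32, those of SLIT2 and EPHB6, and in 17.8% of all. A window without these letters shows nothing about binding elsewhere.

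Partners and signalling genes of these pathways were counted by the same rule, against the 4.25% of all genes called higher and 4.51% called lower, and nothing particular to these short lists is read from the counts. Of 41 genes of Eph and ephrin signalling 32 were compared, and none was called in either direction, with a median log2 ratio of −0.08 beside −0.05 for all genes. Among the largest ratios of that list were those of the SRC-family kinase LYN (7.999 and 13.7 FPKM), the adaptor NCK2 (7.02 and 4.15) and the Eph adaptor ANKS1A (4.67 and 7.32). Of 27 netrin partners and signalling genes 12 were compared, and 1 was called, with a median of 0.05. It was MAP1B, a microtubule-associated protein gene, at 17.2 FPKM in the control and 7.41 FPKM in the targeted library. The exchange factor TRIO had 5.95 and 10.9 FPKM, the neogenin ligand RGMB 2.71 and 1.17, and MAGED1, which binds UNC5A in rodents, 42.99 and 70.2. Of 14 slit and roundabout partners 11 were compared and none was called, with a median of 0.04. The glypican GPC1, which binds slits, had 6.07 and 12.0 FPKM, dystroglycan (DAG1), another slit-binding protein, 41.6 and 77.2, and the RAS exchange factor SOS2 9.83 and 6.01. NELL2, a secreted ligand of ROBO3 in mice, had 0.543 FPKM in the control and 0.0283 FPKM in the targeted library and stayed below the limit for comparison.

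**Figure D4:**
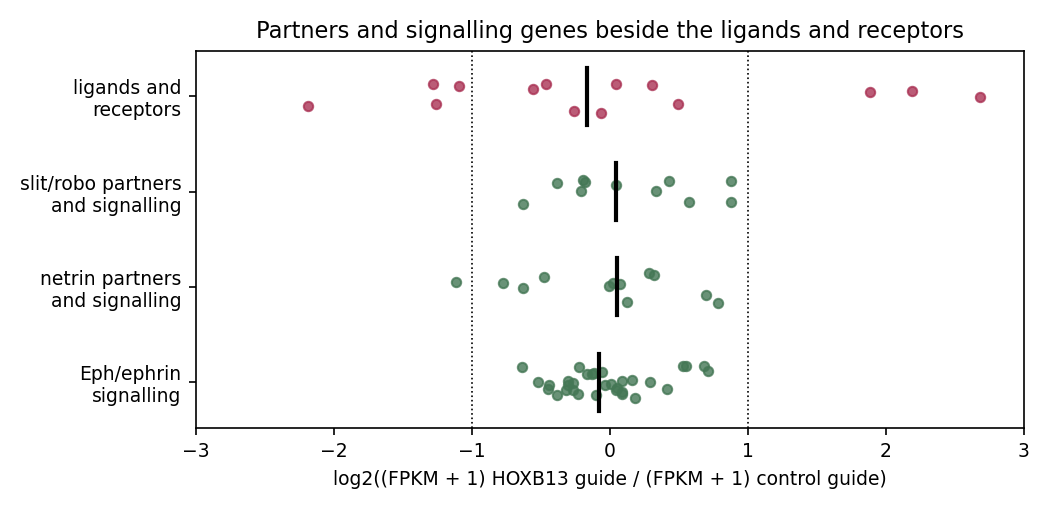
Log2 ratio of (FPKM + 1) in the targeted over the control library for each gene compared in the 3 partner and signalling lists (green) and for the 14 ligands and receptors (red), with the median as a black bar and dotted lines at 2-fold. MAP1B is the only green point past 2-fold, and the red points reach from −2.19 (UNC5B) to 2.68 (EFNB2).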

How the data were processed

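RNA was measured in 1 library per guide from G401 cells, grouped by sample title. Per the labels' protocols, total RNA was depleted of ribosomal RNA and libraries were made for Ion sequencing. The submitters' processing notes name Bowtie, TopHat, Cufflinks and the build hg19. Their versions, settings and strand mode are not given in the sources used here. The authors deposited 1 table of FPKM per library, with 0 written as 0.001 and failed estimates marked (2 rows in the control table and 3 in the other, left out). Rows that share a symbol were summed, which left 23452 symbols with a value. Start positions were taken as counted from 0 and are given from 1.

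Values were compared unscaled as log2 of (FPKM + 1), at 1 FPKM or more in either library, with no test because each group has 1 library. The ratio of 1 read between libraries was 1.02, shared by 306 of 2396 genes under 0.3 FPKM. Depth was the value that gave whole reads, within 0.03, for 59 of 129 single-exon genes, with 200 nt taken off the length. It was chosen for the best match and is approximate, as are reads computed from GENCODE 29 transcript lengths. For 10 of the 13 genes with 30 reads or fewer in a library, reads were set to the whole numbers in the observed ratio. Intervals are exact Clopper-Pearson intervals at 95% of the share of reads, and reads without molecular identifiers are not independent molecules.

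All 37 members are accounted for, and up to 4 genes with the largest ratio are named per signalling list; 1 gene of the Eph list that this rule picked is not reported here. The members and lists were chosen with earlier results of these data known. The calling code was run on simulated differences in abundant genes, large enough to pass the 2-fold rule by construction. That run checked the code alone and says nothing of the calls of low genes. Computation used Python 3.11.15, matplotlib 3.10.9, scipy 1.17.1, pandas 2.3.3 and numpy 2.4.6.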

Additional observations from a re-analysis of the deposited data

How the results depend on the processing

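The 7 calls kept their side of the 2-fold rule under equal totals, an equal upper quartile, centring on the median of all genes or on the housekeeping list, and a pseudocount of 0.1 FPKM, which added EPHB2 as lower (−1.16). Centring on the housekeeping list put the median of all genes at −0.31. The counts of higher and lower genes were 1 and 2 with a limit of 5 FPKM in either library, where fewer genes enter. The median log2 ratio of −0.16 became −0.42 with housekeeping centring, −0.28 with a pseudocount of 0.1 FPKM, 0 with no limit on low values, 0.045 with the limit of 5 FPKM and −0.011 with a limit on the mean of both libraries, the last chosen after seeing the data. With the limit of 5 FPKM, which leaves EFNA4 and EPHA2 in the A class, its ligand over receptor ratio was 0.380 in the control and 0.413 in the targeted library, opposite in direction to the ratio over all members, and the log2 ratios of the A-class ephrin and EphA sums also turned, to 0.05 and −0.07. In addition, the slit ratio in the control was 0.0292 with the limit on the mean. No paired analysis was possible because each group has 1 library, and for the same reason no library could be left out. Genes at a few reads, such as DCC and ROBO2, lie below what this depth can compare.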
